A study of Mus musculus musculus x Mus musculus castaneus with 8 samples.

Results

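Fibroblasts given the DNA methylation inhibitor 5azadC alone were compared directly with fibroblasts given the Aurora kinase inhibitor VX680 alone. The comparison rests on 4 of the 8 RNA libraries of the series, 2 with each drug, taken by their treatment labels and by no measured value. The cells were fibroblasts from the tail of 1 kind of animal, a female F1 cross. Its parents were Mus musculus musculus and Mus musculus castaneus, and their alleles, mus and cas, differ by sequence variants. The groups were 5azadC (5-aza-2'-deoxycytidine), VX680, both drugs together, and untreated cells, and the solvent DMSO was topped up so that its volume with the drugs was equal in every group, the untreated one included. Plates of 15 cm were harvested at 72 h, and the drugs had been added at 24 h. The labels give no drug dose, name no cell line or clone, and do not say whether the replicates were separate cultures. All p-values therefore measure the spread between these libraries, which may be technical. The series asked, by its title, whether the 2 pathways cooperate in silencing of the inactive X chromosome. The direct comparison asks which expression changes belong to one inhibitor and not to the other.

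5azadC is a cytidine analogue that is built into DNA during replication and traps the DNA methyltransferases there, so that methylation is lost as cells divide. Germline genes with CpG-rich promoters, some repeats, imprinted genes and genes of the inactive X chromosome are kept silent in somatic cells partly by this methylation, and interferon-stimulated genes are known to respond to its loss. VX680 blocks the Aurora kinases, which act in spindle assembly, chromosome segregation and the last step of cell division. Cells without Aurora activity go through faulty divisions and become polyploid. Both kinds of inhibitor are known to activate the p53 pathway in dividing cells.

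The 4 libraries compared held between 7209664 and 9862392 reads in genes. Levels are given as CPM (reads per gene scaled to a common library total), with library sizes scaled by TMM. A log2 difference is 5azadC minus VX680, ± SE from the edgeR quasi-likelihood fit with 2 libraries a group, and every adjusted p is from that test with Benjamini-Hochberg adjustment unless another test is named. The 5azadC libraries stood further apart from each other than the VX680 libraries did: 544 genes were at least 2-fold apart between the 5azadC replicates and 157 between the VX680 replicates. All 9 fibroblast markers passed the filter on low counts, and 5 of them were higher and 1 lower with 5azadC than with VX680. Of the markers of other cells, 1 of 4 keratinocyte, 2 of 5 leukocyte, 1 of 3 melanocyte, 1 of 4 skeletal muscle, 3 of 5 endothelial, 3 of 4 chondrocyte and 2 of 4 adipocyte markers passed it, and the leukocyte gene Ptprc had 0 reads in all 4 libraries. With 5azadC 1 muscle marker was higher, 1 endothelial and 1 chondrocyte marker were higher and 1 of each lower, and 1 adipocyte marker was lower. In bulk RNA, fewer cells of a type and less RNA per cell cannot be told apart.

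**Figure D1:**
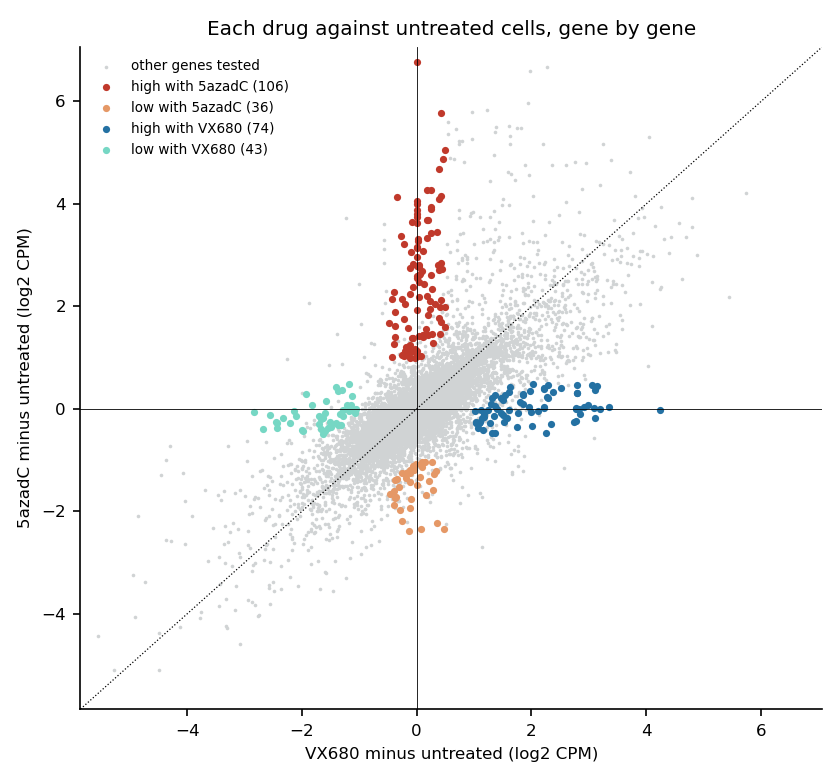
Log2 CPM with VX680 minus untreated (horizontal) against log2 CPM with 5azadC minus untreated (vertical) for the 12643 genes tested, with colours for the genes that differed at least 2-fold between the drugs and lay near untreated with 1 of them. Points above the diagonal were higher with 5azadC, and both axes share the untreated libraries, so spread along the diagonal is not a result.

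Of 12643 genes tested, 1998 (15.8%) differed between the drugs at an adjusted p under 0.05. With 5azadC 1180 were higher (9.33%) and 818 lower (6.47%) than with VX680. At least 2-fold differences were found in 361 higher (2.86%) and 288 lower genes (2.28%), and at least 4-fold differences in 180 and 100. The median log2 difference of all genes was 0.01. In 1996 of the 1998 genes the libraries of the 2 groups did not overlap, against 7109 of all genes tested (56.2%). The count depended on the VX680 libraries: 546 higher and 269 lower without VX680 replicate 1, and 503 and 298 without VX680 replicate 2. With the authors' own scaling, in a limma fit, the split was 731 higher and 1230 lower (37.3% of the calls higher, against 59.1%), and the median of all genes shifted to -0.11. With that scaling the median of the p53, replication, methylation machinery, X regulator, imprinted, YAP and CDK inhibitor lists below turned from above 0 to below it, and that of the p53 list did so with DESeq2 size factors too. No other list named below changed the sign of its median under either scaling.

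Interferon-stimulated genes, which block the entry, copying and spread of viruses, were higher with 5azadC. All 42 tested members of a list of 45 were higher with 5azadC than with VX680, against a background of 9.33% of all genes. The median log2 difference was 3.75. The list's medians against untreated cells were 4.81 with 5azadC, 0.999 with VX680 and 2.72 with both. By its median the list therefore also stood above untreated cells with VX680 alone, by less than with 5azadC. Isg15, a ubiquitin-like antiviral modifier, had 217 and 111 CPM in the 5azadC libraries, against 10.1 and 8.52 CPM in the VX680 libraries, with 50.3 and 58.5 CPM in the combination and 1.99 and 2.49 CPM in untreated cells (log2 difference 4.13 ± 0.27, adjusted p = 9.1e-07). Ifit1, which binds foreign RNA, had 272 and 138 CPM with 5azadC, 12.4 and 11.5 CPM with VX680, 54.3 and 58.2 CPM with both drugs and 6.71 and 6.60 CPM in untreated cells (4.10 ± 0.26, adjusted p = 7.1e-07). The 5azadC libraries were high and the VX680 libraries low without overlap in both genes, and the combination lay between them. Irf7, the transcription factor that amplifies interferon production, had 156 and 67.9 CPM with 5azadC, against 4.42 and 3.60 CPM with VX680 (4.79 ± 0.39, adjusted p = 5.1e-06). Bst2, which tethers budding virus, had 243 and 139 CPM with 5azadC and 37.1 and 33.8 CPM with VX680 (2.43 ± 0.20, adjusted p = 5.1e-06). Stat2, a signal transducer behind the interferon receptor, differed by 1.59 ± 0.24 on the log2 scale.

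Of the 12 genes highest with 5azadC by log2 difference, among genes whose log2 CPM averaged 1 or more, 7 belong to the antiviral response. Ddx60, an RNA helicase of the antiviral response, had 39.9 and 18 CPM with 5azadC and 0.491 and 1.07 CPM with VX680 (5.27 ± 0.49, adjusted p = 1.3e-05). For Oasl2, an oligoadenylate synthetase-like protein, the levels were 102 and 39.4 CPM with 5azadC and 2.36 and 1.73 CPM with VX680 (5.09 ± 0.44). Oas3, which makes the activator of RNase L, had 34.8 and 15.2 CPM with 5azadC, 1.18 and 0.400 CPM with VX680 and 0 and 0 CPM in untreated cells (4.88 ± 0.49). Mx2 (4.58 ± 0.44), Usp18 (4.44 ± 0.36) and Gbp7 (4.72 ± 0.52) were 3 more of the 7, and they block virus, remove Isg15 and attack vacuoles of intracellular microbes. All 42 genes were higher in 5azadC replicate 1 than in 5azadC replicate 2, and 41 of them by at least 1.5-fold. Without 5azadC replicate 1, 41 of 42 were called with a median of 2.97; without 5azadC replicate 2, 44 of 44 tested were called with a median of 4.31. Mx1, which did not pass the filter, had 54 and 7 reads with 5azadC and 0 in both VX680 libraries.

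Sensors of foreign nucleic acid, which set off the interferon response, were partly higher with 5azadC. Of 16 tested sensor and adaptor genes 6 were higher with 5azadC and none lower, with a median of 0.32. The share called was 37.5%, against 15.8% of all genes tested. Of the cytosolic RNA sensors, Dhx58 had 113 and 58.4 CPM with 5azadC, against 4.61 and 3.20 CPM with VX680 (4.43 ± 0.31, adjusted p = 1.4e-06). Ddx58 (RIG-I) differed by 2.66 ± 0.23 and Ifih1 (MDA5) by 2.95 ± 0.26. Trex1, a nuclease that removes cytosolic DNA, had 39.5 and 32.9 CPM with 5azadC and 9.33 and 11.2 CPM with VX680 (1.83 ± 0.18, adjusted p = 2.5e-05). The mitochondrial adaptor Mavs was not called, with 37.6 and 39.1 CPM with 5azadC and 34.4 and 32.4 CPM with VX680 (0.20 ± 0.14, adjusted p = 0.38).

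Antigen presentation genes were also higher with 5azadC. Of 16 genes of the MHC class I pathway 15 were higher with 5azadC, with a median log2 difference of 1.55, against 9 and 10 called without VX680 replicates 1 and 2. The share called with all 8 libraries was 93.75%, against 15.8% of all genes tested. Tap1, a subunit of the peptide transporter, had 77.9 and 47.2 CPM with 5azadC and 11.5 and 17 CPM with VX680 (2.15 ± 0.23, adjusted p = 4.1e-05). Tapbp, which loads peptides onto class I molecules, had 772 and 463 CPM with 5azadC, 221 and 226 CPM with VX680 and 446 and 446 CPM in untreated cells (1.47 ± 0.17, adjusted p = 5.9e-05), so here the VX680 libraries lay below the untreated ones. The immunoproteasome subunits Psmb8 and Psmb10 differed by 3.08 ± 0.41 and 1.48 ± 0.18. The class I heavy chain genes H2-D1 and H2-K1, a family of near-identical copies in which reads can be split, differed by 0.87 ± 0.17 and 0.86 ± 0.20. The H2-K1 call was lost without 5azadC replicate 1 (adjusted p = 0.087), VX680 replicate 1 (0.082) or VX680 replicate 2 (0.084), and the H2-D1 call without VX680 replicate 2 (0.051). In a list of guanylate-binding and immunity-related GTPases, drawn up after the values were seen, all 9 tested of 17 were higher with 5azadC. Irgm2 had 62.6 and 27.2 CPM with 5azadC and 4.71 and 6.26 CPM with VX680. The filter could be passed through the 5azadC libraries alone, so this count describes the 9 and not the list. With no filter on low counts 10 of 14 were called higher. This list overlaps the interferon-stimulated list, so the 2 counts are not separate results.

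**Figure D2:**
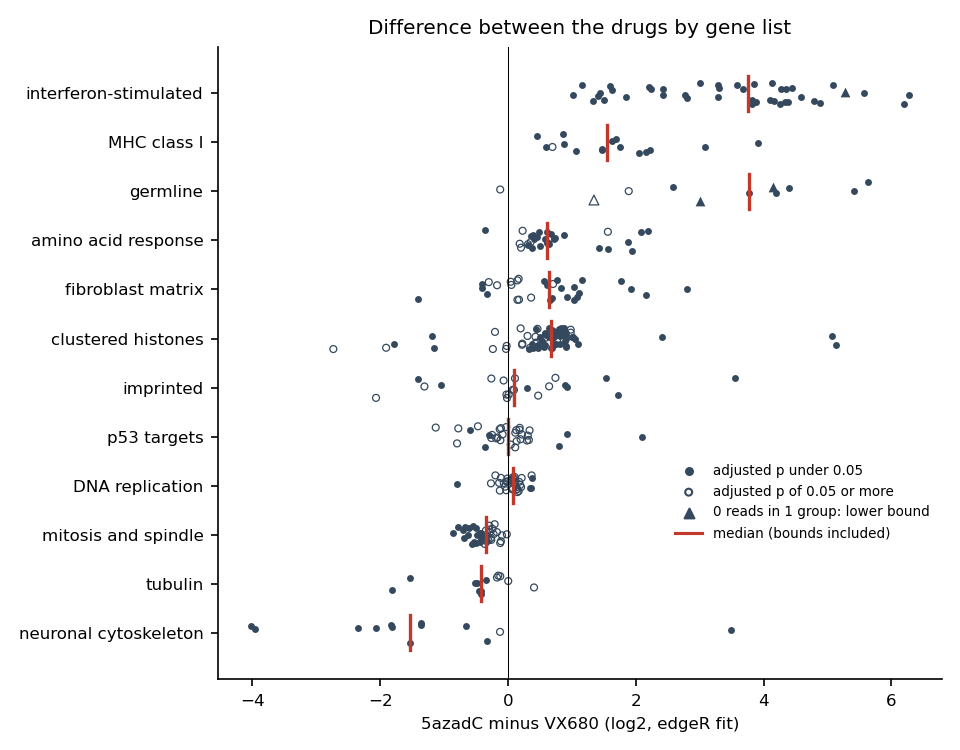
Log2 difference, 5azadC minus VX680, of the tested members of 12 gene lists, 1 point a gene, filled where the adjusted p was under 0.05, with the list's median as a bar and triangles for genes of 0 reads in 1 group, drawn at their lower bound. All 42 interferon-stimulated and all 16 MHC class I genes lie to the right of 0. All called members of the mitosis and tubulin lists lie to the left, and p53 targets on both sides.

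Germline genes are kept methylated and silent in most somatic cells. Of 26 listed genes 11 had enough reads to be tested, and 8 of them were higher with 5azadC, none lower and 3 not called. The median log2 difference was 4.40 as fitted and 3.77 with the 3 genes of 0 reads in 1 group at their lower bound. The filter could be passed through the 5azadC or combination libraries alone, so this count and median are descriptions of the 11 and not of the list. Tex19.1, active in germ cells and placenta, had 11.3 and 6.86 CPM with 5azadC, 0.196 and 0.133 CPM with VX680, 7.31 and 4.69 CPM with both drugs and 0 and 0 CPM in untreated cells (adjusted p = 5.8e-05; its 3 VX680 reads give a count ratio of 54.8, 95% interval 18.4 to 268). Sohlh2, a transcription factor of early germ cells, had 15 and 5.35 CPM with 5azadC and 0.196 and 0.266 CPM with VX680 (5.42 ± 0.65, adjusted p = 9.6e-05). Rps4l, an autosomal gene of the ribosomal protein S4 family, had 15.9 and 6.99 CPM with 5azadC and 0.687 and 0.533 CPM with VX680 (4.19 ± 0.50). The germ cell RNA-binding gene Dazl had 3.57 and 2.33 CPM with 5azadC and no read in either VX680 library, at least 17.8-fold higher (adjusted p = 0.0019). Below the filter, Tex101 had 16 and 2 reads and Mael 5 and 1 reads in the 5azadC libraries, against 0 in the VX680 libraries. The count of 8 fell to 4 without 5azadC replicate 1, and likewise to 4 when VX680 replicate 1 or 2 was left out.

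Some genes near 0 reads outside the germline list were higher with 5azadC too. Tas1r1 (chromosome 4), a taste receptor subunit, had 24.5 and 14.7 CPM with 5azadC, 0.196 and 0.266 CPM with VX680, 8.30 and 6.76 CPM with both drugs and 0.272 and 0 CPM in untreated cells (6.35 ± 0.52, adjusted p = 5.1e-06). Apob (chromosome 12), the lipoprotein particle protein of liver and gut, had 37.2 and 18.1 CPM with 5azadC, 0.884 and 0.533 CPM with VX680, 19.8 and 20.7 CPM with both drugs and 0.181 and 0.293 CPM in untreated cells (5.22 ± 0.42, adjusted p = 5.1e-06). Both genes are known from another tissue, and in both the 5azadC and the combination libraries were high and the VX680 and untreated libraries at or near 0. Tuba3b, an alpha tubulin of testis, had 5.91 and 2.19 CPM with 5azadC and 0 reads with VX680 (at least 25-fold). Pgm5 (4.94 ± 0.56) and Dpep1 (4.46 ± 0.48) were also called higher.

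Genes of the amino acid response, which Atf4 controls when amino acids are short or proteins misfold, were higher with 5azadC. In a list drawn up after the values were seen, 24 of 32 tested genes were higher and 1 lower, with a median of 0.61. The share called was 78.1%, against 15.8% of all genes tested. Chac1, which breaks down glutathione, had 34.7 and 30.3 CPM with 5azadC, against 7.85 and 6.26 CPM with VX680 and 10.2 and 9.67 CPM in untreated cells (2.19 ± 0.19, adjusted p = 8.8e-06). Asns, asparagine synthetase, had 82.3 and 66.2 CPM with 5azadC and 26.6 and 29.2 CPM with VX680, against 26.1 and 23.5 CPM in untreated cells (1.42 ± 0.13, adjusted p = 1.3e-05). Trib3, a pseudokinase that restrains the response, had 66.2 and 57.7 CPM with 5azadC and 16.4 and 15.8 CPM with VX680 (1.94 ± 0.19, adjusted p = 1.8e-05). Aldh1l2, a mitochondrial folate enzyme, differed by 2.07 ± 0.12, but here VX680 departed: 131 and 125 CPM with 5azadC, 26.8 and 34.5 CPM with VX680 and 165 and 165 CPM in untreated cells. The p53 target and stress sensor Sesn2, which Atf4 also induces, had 154 and 156 CPM with 5azadC and 81.2 and 82.3 CPM with VX680 (0.92 ± 0.10, adjusted p = 4.4e-05). The count of 24 was 13 and 16 without VX680 replicates 1 and 2.

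Collagens and other matrix genes, the main secreted product of fibroblasts, were more often higher than lower with 5azadC. Of 30 tested fibroblast matrix genes 16 were higher with 5azadC and 4 lower, with a median log2 difference of 0.64. The share called was 66.7%, against 15.8% of all genes tested. Only 2 of the 30 were higher in 5azadC replicate 1 than in 5azadC replicate 2. The median was 0.81 without 5azadC replicate 1 and 0.38 without 5azadC replicate 2, with 31 genes tested in each. Against untreated cells the list's medians were -0.81 with 5azadC, -1.16 with VX680 and -1.96 with both. Ogn (osteoglycin), a small leucine-rich proteoglycan, had 52.8 and 44.6 CPM with 5azadC, 7.17 and 6.79 CPM with VX680, 4.92 and 2.898 CPM with both drugs and 240.0 and 181 CPM in untreated cells (2.80 ± 0.19, adjusted p = 1.4e-06). Col1a1, a chain of the main fibrillar collagen, had 5972 and 8067 CPM with 5azadC, 3362 and 3520.3 CPM with VX680 and 12429 and 15550.0 CPM in untreated cells (1.03 ± 0.13, adjusted p = 1.7e-04). Col6a1, of the microfibrillar collagen VI, had 1590.2 and 1936 CPM with 5azadC, 905 and 956 CPM with VX680 and 1863 and 1887 CPM in untreated cells (0.92 ± 0.10, adjusted p = 3.6e-05), which put 5azadC at about the untreated level and VX680 below it. Decorin went the other way: Dcn had 4.79 and 16.2 CPM with 5azadC and 28 and 26 CPM with VX680 (-1.41 ± 0.34, adjusted p = 0.011), with its 5azadC libraries more than 3-fold apart. The Dcn call was lost without VX680 replicate 1 (adjusted p = 0.089) or replicate 2 (0.059), from the 4 libraries alone (0.089) and with the DESeq2 Wald test (0.12). A list of small proteoglycans was drawn up after the values were seen. Of its 9 tested genes 5 were higher and 1 lower with 5azadC, a share of 66.7% against 15.8% of all genes. Of them Fmod, a collagen-binding member, had 34.3 and 52.4 CPM with 5azadC, 9.03 and 7.99 CPM with VX680 and 53.8 and 57 CPM in untreated cells (2.33 ± 0.20, adjusted p = 8.3e-06). The 4 lower matrix genes became 8 without 5azadC replicate 2 and none when VX680 replicate 1 or 2 was left out.

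The fibroblast chemokine Cxcl12, which holds blood and stem cells in their niches, gave the smallest adjusted p of the inflammatory list. It had 339.6 and 355 CPM with 5azadC, 75.6 and 70.05 CPM with VX680, 49.2 and 43.7 CPM with both drugs and 1216 and 1192 CPM in untreated cells (2.25 ± 0.09, adjusted p = 2.0e-08). The VX680 and combination libraries were low, the 5azadC libraries in between and the untreated libraries high, with no overlap. In that list of 24 factors 17 were tested, 4 higher and 6 lower with 5azadC. The share called was 58.8%, against 15.8% of all genes tested. The interferon-induced chemokines Cxcl10 (2.66 ± 0.40) and Ccl5 (3.63 ± 0.54) were higher, and the growth factor Hbegf was lower, with 30.7 and 29.2 CPM with 5azadC, 54 and 50.5 CPM with VX680 and 5.89 and 4.25 CPM in untreated cells (-0.80 ± 0.13, adjusted p = 9.2e-04). Among contractile genes 7 of 15 were higher with 5azadC and 1 lower, a share of 53.3% against 15.8% of all genes tested. Mylk, the myosin light chain kinase, had 115 and 80.9 CPM with 5azadC, 24.8 and 23.7 CPM with VX680 and 145 and 159 CPM in untreated cells (2.02 ± 0.15, adjusted p = 2.6e-06). Leaving out VX680 replicate 1 or 2 left 1 called higher.

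Imprinted genes, expressed from 1 parental copy under the control of DNA methylation, split. Of 21 tested genes 6 were higher with 5azadC and 2 lower, with a median log2 difference of 0.09. The share called was 38.1%, against 15.8% of all genes tested. Peg10, derived from a retrotransposon, had 605 and 376 CPM with 5azadC, 157 and 142 CPM with VX680 and 369 and 369.5 CPM in untreated cells (1.71 ± 0.17, adjusted p = 2.1e-05). Mest, a paternally expressed gene of the hydrolase family, had 8.58 and 10.1 CPM with 5azadC, 1.08 and 0.400 CPM with VX680 and 21.9 and 16.1 CPM in untreated cells (3.55 ± 0.40, adjusted p = 5.4e-05). Plagl1, a zinc finger factor, had 23.7 and 20.6 CPM with 5azadC, 8.35 and 6.79 CPM with VX680 and 46 and 57 CPM in untreated cells (1.54 ± 0.19, adjusted p = 1.2e-04). In Mest and Plagl1 both drugs lay below the untreated level and VX680 further below; in Peg10 only the VX680 libraries did. The 2 lower genes were Dcn, described above, and the noncoding RNA gene H19, with 4.12 and 4.39 CPM with 5azadC and 7.76 and 9.85 CPM with VX680 (-1.04 ± 0.33, adjusted p = 0.048). The H19 call was lost in 6 of the 8 fits that left out 1 library, with adjusted p up to 0.31. Without VX680 replicate 1 or replicate 2, 3 of the 6 were called.

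**Figure D3:**
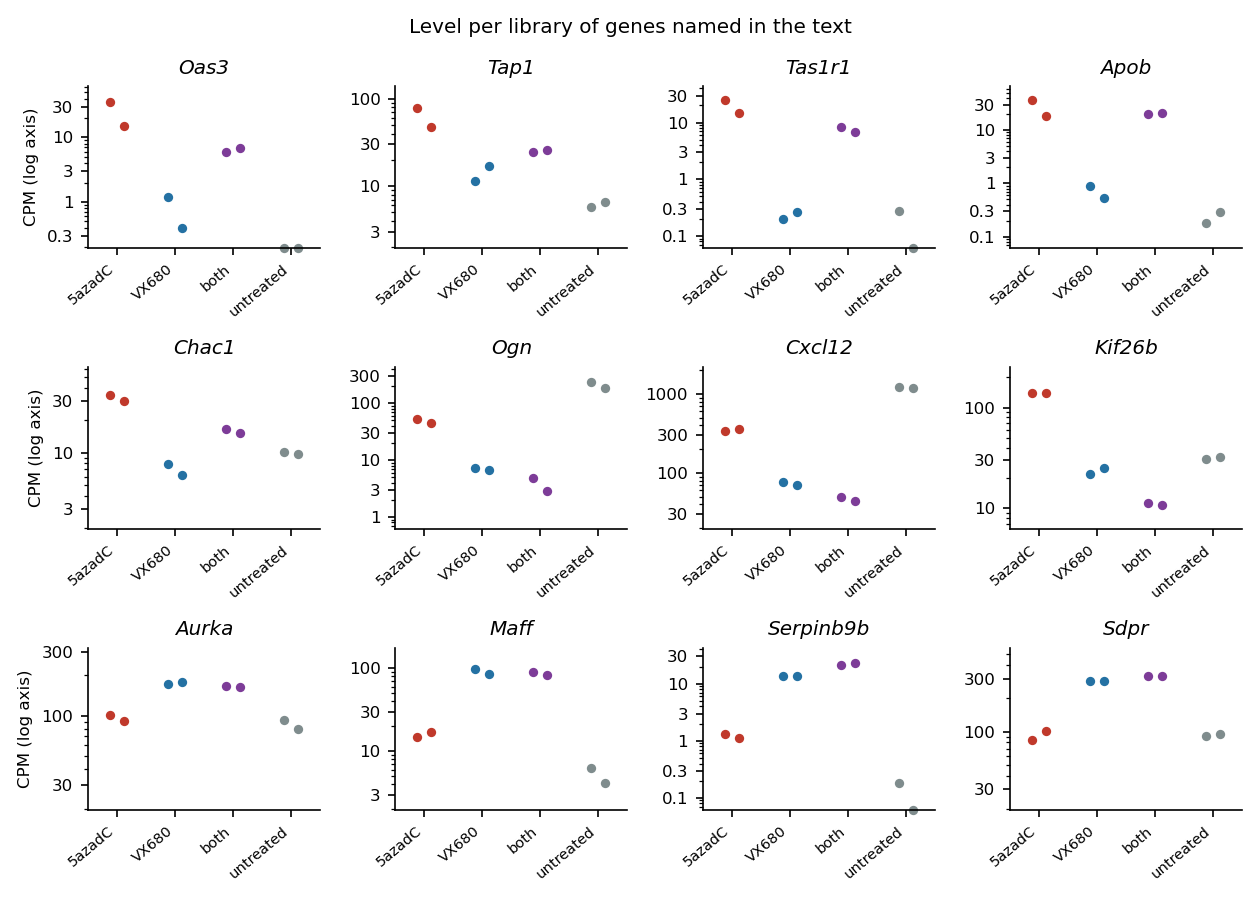
CPM per library on a log axis for 12 genes named in the text, with a value of 0 drawn at the lower edge; groups run from left to right as 5azadC, VX680, both drugs and untreated. Oas3, Tas1r1 and Apob are high in the 5azadC and combination libraries, Cxcl12 and Ogn are lowest in the combination libraries, and Maff, Serpinb9b and Aurka are high in the VX680 and combination libraries.

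Genes of mitosis and the spindle, where the Aurora kinases act, stood higher with VX680. Of 39 tested genes 20 were lower with 5azadC than with VX680 and none higher, against a background of 6.47%, with a median log2 difference of -0.35. Against untreated cells the medians were -0.01 with 5azadC, 0.38 with VX680 and 0.42 with both. Aurka, the Aurora kinase of spindle poles and a target of VX680, had 101 and 91.2 CPM with 5azadC, 173 and 179 CPM with VX680, 166 and 164 CPM with both drugs and 92.8 and 79.4 CPM in untreated cells (-0.87 ± 0.10, adjusted p = 6.8e-05). Aurkb, the kinase of the chromosomal passenger complex, had 95.5 and 90.4 CPM with 5azadC and 112 and 116 CPM with VX680, and was not called (-0.29 ± 0.10, adjusted p = 0.073). Prc1, which bundles the midzone of the spindle, had 146 and 125 CPM with 5azadC and 222 and 244 CPM with VX680 (-0.78 ± 0.10, adjusted p = 2.2e-04). The centromeric histone gene Cenpa differed by -0.67 ± 0.09 and Ube2c, which feeds the anaphase-promoting complex, by -0.63 ± 0.09. The count was 10 and 11 without VX680 replicates 1 and 2, and no member was called higher with 5azadC under any of the settings tried.

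Genes of DNA replication were called at a share near that of all genes. Of 34 tested, 3 were higher with 5azadC and 1 lower, which is 11.8% against 15.8% of all genes tested, with a median of 0.09, and the helicase gene Mcm6 had 173 and 167 CPM with 5azadC and 133 and 132 CPM with VX680 (0.36 ± 0.10, adjusted p = 0.019). Leaving out VX680 replicate 1 or 2 left none called higher, with Mcm6 at an adjusted p of 0.13 and 0.14. Histone genes, which are expressed in S phase, stood higher with 5azadC. Of 69 clustered histone genes, taken by symbol after the values were seen, 45 were higher and 3 lower. The share called was 69.6%, against 15.8% of all genes tested. The median of the histone genes against untreated cells was -0.01 with 5azadC, -0.66 with VX680 and -0.70 with both. Between the 5azadC libraries 28 of the 69 were at least 1.5-fold apart, and 11 were higher in replicate 1. Their summed level was 16493 and 22300 CPM in these libraries. The median log2 difference was 0.85 without 5azadC replicate 1 and 0.35 without 5azadC replicate 2. Hist1h2ae had 129 and 131 CPM with 5azadC, 69.6 and 68.3 CPM with VX680 and 135 and 142 CPM in untreated cells (0.91 ± 0.09, adjusted p = 2.5e-05). Histone genes are near-identical copies, among which reads can be split, so single members are uncertain, and 19 were called higher when VX680 replicate 1 or 2 was left out. Chromosome 13, which holds the main histone cluster, had 86 of 483 tested genes higher with 5azadC (17.8%), made up of 40 of 55 histone genes (72.7%) and 46 of 428 other genes (10.7%).

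Of 13 tested members of a tubulin list, 8 were lower with 5azadC and none higher, with a median log2 difference of -0.42. The share called was 61.5%, against 15.8% of all genes tested. Tuba3b, given above as higher with 5azadC, was not on that list. Tubb2b, a beta tubulin of neurons, had 16.2 and 27.3 CPM with 5azadC, 60.1 and 64.3 CPM with VX680, 37.5 and 52.2 CPM with both drugs and 15 and 19.6 CPM in untreated cells (-1.53 ± 0.22, adjusted p = 3.2e-04). Tubb3, the neuronal class III beta tubulin, had 3.57 and 7.82 CPM with 5azadC, 20.6 and 18.8 CPM with VX680, 17.3 and 18.1 CPM with both drugs and 4.08 and 7.62 CPM in untreated cells (-1.82 ± 0.32, adjusted p = 0.0019). In both genes the VX680 and combination libraries lay above all 5azadC and untreated libraries. A list of neuronal cytoskeleton genes, drawn up after the values were seen, had 11 of 13 tested genes lower and 1 higher with 5azadC. The share of this list called was 92.3%, against 15.8% of all genes tested. With no filter on low counts 11 of 21 were called lower. Uchl1, a neuronal deubiquitinase, had 8.58 and 6.86 CPM with 5azadC, 43.1 and 35.8 CPM with VX680 and 2.45 and 4.54 CPM in untreated cells (-2.35 ± 0.22, adjusted p = 1.3e-05). Kif1a, the motor that carries synaptic vesicle precursors, had 12.8 and 20.8 CPM with 5azadC, 57.8 and 61 CPM with VX680 and 22.9 and 22.7 CPM in untreated cells (-1.83 ± 0.17, adjusted p = 1.6e-05). Stmn2, a microtubule-destabilizing stathmin, was the exception, with 9.03 and 3.70 CPM with 5azadC and 0.687 and 0.400 CPM with VX680 (3.49 ± 0.60, adjusted p = 0.0013). Leaving out VX680 replicate 1 or 2 left 3 tubulin genes and 7 neuronal cytoskeleton genes called lower.

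Called genes that averaged 1 or more in log2 CPM were ranked by their log2 difference, and the lowest 12 with 5azadC included Maff, Serpinb9b and Gdf6. Maff, a small Maf transcription factor, had 15 and 17.3 CPM with 5azadC, 98 and 86.4 CPM with VX680, 91 and 82.7 CPM with both drugs and 6.35 and 4.10 CPM in untreated cells (-2.52 ± 0.15, adjusted p = 4.0e-07). Serpinb9b, an intracellular protease inhibitor, had 1.34 and 1.10 CPM with 5azadC, 13.7 and 13.6 CPM with VX680, 21.2 and 23.5 CPM with both drugs and 0.181 and 0 CPM in untreated cells (-3.46 ± 0.32, adjusted p = 1.3e-05). Gdf6, a ligand of the BMP family, had 0.892 and 1.51 CPM with 5azadC, 19.7 and 17 CPM with VX680, 12.9 and 10.5 CPM with both drugs and 2.27 and 3.66 CPM in untreated cells (-3.95 ± 0.34, adjusted p = 7.9e-06). The VX680 and combination libraries were high and the 5azadC libraries low in each, without overlap. Mdfi, an inhibitor of myogenic factors, differed by -3.27 ± 0.55 and Adora2a, an adenosine receptor, by -3.10 ± 0.41.

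Immediate early genes, which growth signals switch on within minutes, split. In a list drawn up after the values were seen, 10 of 27 were higher and 4 lower with 5azadC, Maff among the lower. The share called was 51.9%, against 15.8% of all genes tested. Fos, a subunit of the AP-1 factor, had 32.2 and 26.9 CPM with 5azadC, 14.8 and 11.7 CPM with VX680, 13.2 and 12.6 CPM with both drugs and 23.3 and 18.8 CPM in untreated cells (1.15 ± 0.19, adjusted p = 0.001). Egr2, a zinc finger factor, had 30.3 and 25 CPM with 5azadC, 14 and 9.85 CPM with VX680, 7.87 and 10.3 CPM with both drugs and 12.3 and 13 CPM in untreated cells (1.20 ± 0.21, adjusted p = 0.0019). In Fos the untreated libraries lay between the drugs, and in Egr2 beside VX680.

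Markers of other cell types that passed the filter moved both ways, and their part in the results above was not tested. Of the endothelial markers, the VEGF receptor Flt1 had 32 and 32 CPM with 5azadC and 81 and 87.2 CPM with VX680 (-1.39 ± 0.12, adjusted p = 6.4e-06). The TGF-beta co-receptor Eng had 199 and 184 CPM with 5azadC and 110.3 and 99.5 CPM with VX680 (0.87 ± 0.10, adjusted p = 9.1e-05). The defining endothelial markers were near 0: Pecam1 had 0.557 and 0.137 CPM with 5azadC and 1.08 and 2.53 CPM with VX680, and Cdh5 had 0 and 4 reads with 5azadC and 1 and 1 with VX680. Of the chondrocyte markers Sox9 was higher (2.18 ± 0.23) and Col2a1 lower (-1.87 ± 0.42) with 5azadC, and Acan had 0 reads in the 4 libraries. The Col2a1 call was lost without 5azadC replicate 1 (adjusted p = 0.052) or VX680 replicate 1 (0.097). Of the adipocyte markers, Fabp4 was lower, with 3.34 and 3.43 CPM with 5azadC and 13.2 and 16.1 CPM with VX680 (-2.10 ± 0.33, adjusted p = 7.5e-04), and Adipoq had 0 reads in the 4 libraries.

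Targets of p53, which arrest the cycle or start cell death, were called about as often as all genes. Of 32 tested 3 were higher and 3 lower with 5azadC, a share of 18.8% against 15.8% of all genes tested, with a median log2 difference of 0.01. Against untreated cells their medians were 1.25 with 5azadC, 1.18 with VX680 and 1.39 with both. Cdkn1a, the cell cycle inhibitor p21, had 274 and 293 CPM with 5azadC, 356 and 341 CPM with VX680, 399.7 and 407 CPM with both drugs and 39.98 and 42.5 CPM in untreated cells (-0.30 ± 0.08, adjusted p = 0.029). Mdm2, the ubiquitin ligase that turns p53 over, had 208 and 214 CPM with 5azadC and 272 and 272 CPM with VX680 (-0.36 ± 0.08, adjusted p = 0.01). The Cdkn1a call was lost in 5 of the 8 fits that left out 1 library, with adjusted p up to 0.21, and the Mdm2 call without VX680 replicate 1 (0.093) or replicate 2 (0.098). The sulfatase Sulf2 had 308 and 263 CPM with 5azadC, against 166 and 164 CPM with VX680 (0.79 ± 0.11, adjusted p = 3.2e-04). The growth factor Gdf15 had 26.5 and 10.8 CPM with 5azadC and 3.04 and 5.99 CPM with VX680 (2.10 ± 0.39, adjusted p = 0.0025), a call lost without VX680 replicate 1 (0.058). Without VX680 replicate 1 the calls were 2 higher and 1 lower, and without VX680 replicate 2 they were 3 and none.

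The DNA methyltransferase genes, whose proteins 5azadC traps, were not called. Dnmt1, the maintenance methyltransferase, had 720.4 and 667 CPM with 5azadC and 623 and 641 CPM with VX680 (0.14 ± 0.08, adjusted p = 0.32). Dnmt3a differed by 0.16 ± 0.09 (adjusted p = 0.28), Dnmt3b by 0.12 ± 0.28 (adjusted p = 0.84) and Uhrf1, which recruits Dnmt1, by 0.19 ± 0.12 (adjusted p = 0.32). Without 5azadC replicate 2, Uhrf1 was called higher (0.38 log2 units, adjusted p = 0.006). Of 22 genes of the methylation machinery, the dioxygenase gene Tet2 was higher (0.49 ± 0.15, adjusted p = 0.035) and the stress gene Gadd45a lower (-0.67 ± 0.21, adjusted p = 0.044). Both calls were lost in several fits that left out 1 library, among them those without 5azadC replicate 1 (0.089 for Tet2 and 0.07 for Gadd45a), VX680 replicate 1 (0.15 and 0.1) or VX680 replicate 2 (0.18 and 0.27). None of 14 regulators of X inactivation was called by edgeR, among them Xist (405 and 426 CPM with 5azadC and 357 and 378 CPM with VX680, against 781 and 786 CPM in untreated cells; 0.18 ± 0.08, adjusted p = 0.17). Of the 14, 4 had an unadjusted p under 0.05, and DESeq2 called none. With no filter on low counts 2 were called higher, without 5azadC replicate 2 1 was called higher, and limma on the authors' signal called 1 lower. Whether the counting used strand is not given, so reads of Xist and its antisense partner Tsix cannot be told apart. The CDK inhibitor Cdkn2b was higher with 5azadC (0.55 ± 0.09, adjusted p = 0.0011), 1 of 7 such genes, beside Cdkn1a as the 1 lower. Of 23 tested cholesterol synthesis genes 7 were higher and none lower, and none was called when VX680 replicate 1 or 2 was left out, with the lanosterol demethylase gene Cyp51 at 0.40 ± 0.09 (adjusted p = 0.0086; 0.093 and 0.081 without VX680 replicates 1 and 2). Of 22 lysosomal genes 1 was higher and 4 lower, with the protease gene Ctsb at -0.51 ± 0.09 (adjusted p = 0.0021). Of 14 targets of the YAP regulator 4 were higher and 2 lower, with Ankrd1 at -0.78 ± 0.11 and Amotl2 at 0.66 ± 0.09. Of all genes tested 15.8% were called. The shares were 9.09% of methylation machinery, 28.6% of CDK inhibitor, 30.4% of cholesterol synthesis, 22.7% of lysosomal and 42.9% of YAP target genes.

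To say which drug departed, each gene was placed against the untreated libraries. Of the 1180 genes higher with 5azadC, untreated cells lay nearer to 5azadC in 650 and nearer to VX680 in 530. Of the 818 lower genes, they lay nearer to 5azadC in 549 and nearer to VX680 in 269. Among the 2-fold differences the split for the higher genes was 116 nearer to 5azadC and 245 nearer to VX680, and for the lower genes 195 nearer to 5azadC and 93 nearer to VX680. Stricter classes took genes at least 2-fold apart between the drugs, with 1 drug within 0.5 log2 units of untreated and the other at least 1 away. They held 106 genes high with 5azadC, 36 low with 5azadC, 74 high with VX680 and 43 low with VX680. Of the 106, 8 were X-linked (7.55%), against 404 of all genes tested (3.2%), and this share was not tested. The sizes of the classes move with the distances chosen, from 106 to 62 and from 36 to 5 for the 5azadC classes when the departing drug had to be 2 log2 units away.

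**Figure D4:**
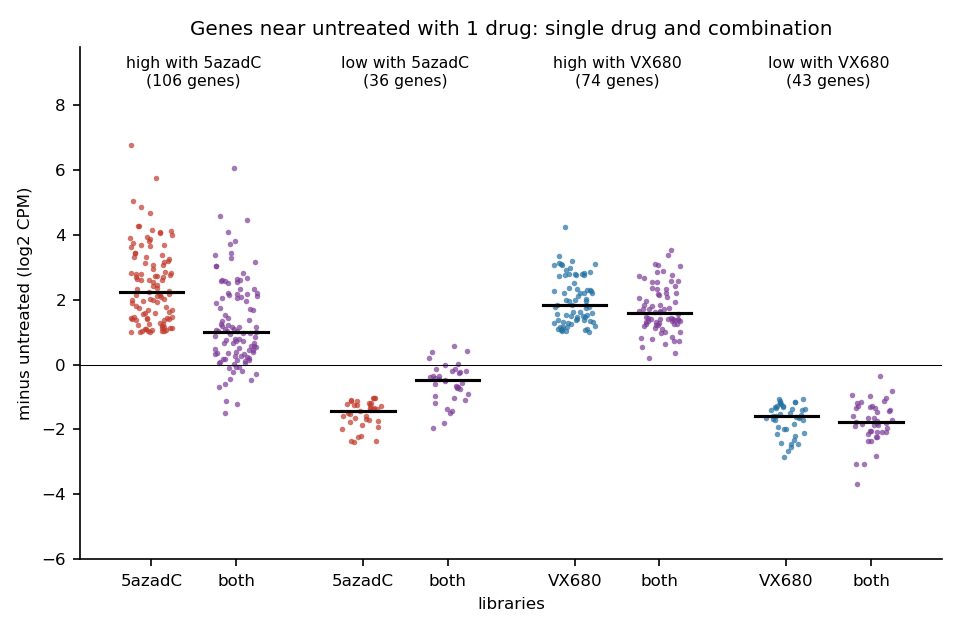
Log2 CPM of the combination minus untreated for the genes of the 4 classes, 1 point a gene, with the median as a bar and, beside it, the same genes with the drug that defines the class. The classes high and low with VX680 keep about the same level in the combination, and the 2 classes of 5azadC lie nearer to 0 there.

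The distances that set these classes did not use the combination libraries, which entered through the filter on low counts, the scaling of library sizes and the shared estimate of the spread. They lay nearer to VX680 than to 5azadC in 64 of the 106 genes high with 5azadC, 26 of the 36 low with 5azadC, 66 of the 74 high with VX680 and 41 of the 43 low with VX680. Of the 74 genes high with VX680, all 74 were above untreated in the combination and 63 at least 2-fold, with a median log2 departure of 1.59 in the combination and 1.85 with VX680 alone. Of the 43 low with VX680, 43 were below untreated and 39 at least 2-fold, with medians of -1.76 in the combination and -1.60 with VX680 alone. Of the 106 genes high with 5azadC, 93 were above untreated in the combination and 54 at least 2-fold, with medians of 1.02 in the combination and 2.25 with 5azadC alone. Of the 36 low with 5azadC, 31 were below untreated and 8 at least 2-fold, with medians of -0.49 in the combination and -1.42 with 5azadC alone. The departures with a single drug chose the classes, so they are descriptions with no test.

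Taken by the size of the difference between the drugs, each class opened with genes of few reads. High with 5azadC and at 0 reads with VX680 were, among others, Tuba3b, the interferon-induced GTPase gene Iigp1 (9.81 and 2.61 CPM with 5azadC, at least 38.8-fold higher), Umodl1 (4.79 and 3.02 CPM, at least 23.6-fold), the growth regulatory gene Slfn8 (5.35 and 2.06 CPM, at least 22.9-fold) and the X-linked Tex13 (5.24 and 1.37 CPM, at least 20.7-fold). Iigp1 and Slfn8 had at most 0.276 CPM in the combination, while Umodl1 had 1.12 and 2.62 CPM and Tex13 3.51 and 4.28 CPM there. Among the class low with 5azadC, the hormone gene Stc1 had 0.892 and 1.92 CPM with 5azadC, 7.66 and 8.66 CPM with VX680, 7.59 and 4.69 CPM with both drugs and 7.43 and 8.06 CPM in untreated cells (-2.56 ± 0.39, adjusted p = 6.4e-04). Among the class low with VX680, the cartilage matrix gene Cilp had 5.46 and 6.86 CPM with 5azadC, 0.589 and 0.799 CPM with VX680, 0.703 and 0.414 CPM with both drugs and 7.80 and 5.28 CPM in untreated cells (3.14 ± 0.45, adjusted p = 3.8e-04). Angptl7, an angiopoietin-like secreted protein of the class high with VX680, had 0 reads with 5azadC and 1.67 and 1.73 CPM with VX680, at least 9.19-fold lower with 5azadC.

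Genes with more reads show the 4 patterns. Sdpr (cavin-2), a coat protein of caveolae, had 84.5 and 101 CPM with 5azadC, 287 and 284 CPM with VX680, 316 and 317 CPM with both drugs and 91.8 and 95.9 CPM in untreated cells (-1.62 ± 0.10, adjusted p = 5.3e-07). Gas1, a growth arrest protein and Hedgehog co-receptor, had 1221 and 1432 CPM with 5azadC, 455 and 439 CPM with VX680, 222 and 198 CPM with both drugs and 1680.1 and 1871 CPM in untreated cells (1.57 ± 0.10, adjusted p = 8.7e-07). In these 2 the combination lay on the same side of untreated as VX680, and further from it. Epas1 (HIF-2 alpha), a hypoxia-inducible factor, was low with 5azadC alone, at 12.8 and 21.5 CPM with 5azadC, 55 and 46.1 CPM with VX680, 39.8 and 34.4 CPM with both drugs and 37.4 and 44 CPM in untreated cells (-1.58 ± 0.20, adjusted p = 1.4e-04). Kif26b, an unusual kinesin that acts in cell adhesion, was high with 5azadC alone and low in the combination: 140.1 and 141 CPM with 5azadC, 21.9 and 24.9 CPM with VX680, 11.2 and 10.8 CPM with both drugs and 30.6 and 32.4 CPM in untreated cells (2.59 ± 0.11, adjusted p = 2.0e-08). Wisp2, a secreted CCN family protein, was likewise highest with 5azadC and lowest in the combination, but with VX680 above untreated, at 186 and 235 CPM with 5azadC, 57.3 and 57.4 CPM with VX680, 17.4 and 24.4 CPM with both drugs and 49.96 and 47.3 CPM in untreated cells (1.87 ± 0.14, adjusted p = 2.1e-06). Tuba3b, by contrast, was high in the combination too, at 6.05 and 5.11 CPM. Sdpr, Gas1, Epas1, Kif26b and Wisp2 were singled out after their values were seen.

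Reads that cover a variant can be assigned to the mus or cas allele, and so to 1 of the 2 X chromosomes. In total level 33 of 404 tested X-linked genes were higher with 5azadC (8.17%) and 27 lower (6.68%), near the shares of all genes. Of 10 genes known to escape X inactivation 20% were called, against 15.8% of all genes tested. Shroom4 (0.73 ± 0.17, adjusted p = 0.0094) and the demethylase gene Kdm5c (0.29 ± 0.08, adjusted p = 0.035) were higher with 5azadC and none lower. Both calls were lost without 5azadC replicate 1 (0.052 for Shroom4 and 0.089 for Kdm5c), VX680 replicate 1 (0.064 and 0.16) or VX680 replicate 2 (0.095 and 0.23). Over 277 X-linked genes other than Xist, the mus share of reads was 5.26% and 4.89% in the 5azadC libraries (95% Clopper-Pearson intervals 5.04 to 5.50 and 4.65 to 5.14) and 4.84% and 4.96% in the VX680 libraries (4.63 to 5.06 and 4.72 to 5.21). It was 5.74% and 5.80% in the combination and 4.01% and 4.05% in untreated cells. The median mus share per gene was 0.517% with 5azadC, 0.538% with VX680 and 0.496% in untreated cells. Some genes had a high mus share in every group, such as Slc25a5 with 75.2% and 72.4% with 5azadC and 81.5% and 68.6% in untreated cells. The pooled share therefore also moves with the level of such genes. The intervals cover counting error only. Most X-linked reads were cas in every library, and the values of the 2 drugs overlapped. The difference of 0.175 percentage points was not larger than the spread (two-sided exact permutation p = 0.667, where 2 against 2 libraries allow no p below 0.333). It was -0.0119 without 5azadC replicate 1 and 0.363 without 5azadC replicate 2, against 0.115 and 0.236 without VX680 replicates 1 and 2.

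Few single genes differed in their mus to cas ratio. Of 10301 genes with enough allele-assigned reads 26 (0.252%) differed between the drugs, 3 of 278 X-linked (1.08%) and 23 of 10023 autosomal genes (0.229%), and 551 had an unadjusted p under 0.05. Msn, the X-linked membrane linker moesin, had a mus share of 8.87% and 3.54% with 5azadC, against 1.08% and 1.16% with VX680, 4.58% and 3.95% with both drugs and 0.163% and 0 in untreated cells (log2 ratio difference 2.56 ± 0.26, adjusted p = 1.03e-08). Its total level was lower with 5azadC, at 808 and 687 CPM against 995 and 984 CPM with VX680 (-0.40 ± 0.09, adjusted p = 0.01; 0.098 and 0.088 without VX680 replicates 1 and 2). Xist, the RNA that coats the inactive X, was mostly mus: 77.4% and 79.8% with 5azadC and 90.6% and 93.2% with VX680 (-1.61 ± 0.20, adjusted p = 1.26e-06). Its mus share was 81.7% and 88.65% with both drugs and 93.2% and 90.7% in untreated cells. Here too, reads of Xist and Tsix cannot be told apart. The proteoglycan gene Bgn had 2.93% and 2.11% mus with 5azadC and 0.862% and 1.11% with VX680 (1.41 ± 0.27, adjusted p = 0.0047), a call lost without 5azadC replicate 1 (0.232) and without VX680 replicate 1 (0.466). The mus share of Bgn was 2.47% and 0.409% with both drugs and 0.578% and 0.788% in untreated cells. In 124 of the 277 genes no mus read was seen with 5azadC, and in 123 none with VX680, which at this depth limits what could be detected. Of the 23 autosomal genes, 12 had a higher mus to cas ratio with 5azadC than with VX680 and 11 a lower one. Lrp1, an endocytic receptor, had 7.25% and 6.69% mus with 5azadC and 12.3% and 10.4% with VX680 (-0.77 ± 0.11, adjusted p = 4.9e-05). Tm4sf1, a membrane protein of adhesive cells, had 88% and 90.9% mus with 5azadC and 96.4% and 97% with VX680 (-1.82 ± 0.29, adjusted p = 3.8e-04). Ndufa8, of respiratory complex I, had 66.9% and 71% with 5azadC and 81.5% and 85% with VX680 (-1.16 ± 0.19, adjusted p = 7.5e-04). In untreated cells the mus share was 7.21% and 5.32% for Lrp1, 87.1% and 91.5% for Tm4sf1 and 77.4% and 69.9% for Ndufa8. For Lrp1 and Tm4sf1 the untreated values lay nearer to 5azadC than to VX680. The first autosomal gene by p, the histone gene Hist1h3e, is uncertain because of its near-identical copies. The Lrp1 call was lost without VX680 replicate 1 (adjusted p = 0.0518), the Tm4sf1 call without 5azadC replicate 1 (0.187), and the Ndufa8 call without 5azadC replicate 1 (0.0687) or VX680 replicate 2 (0.0682).

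**Figure D5:**
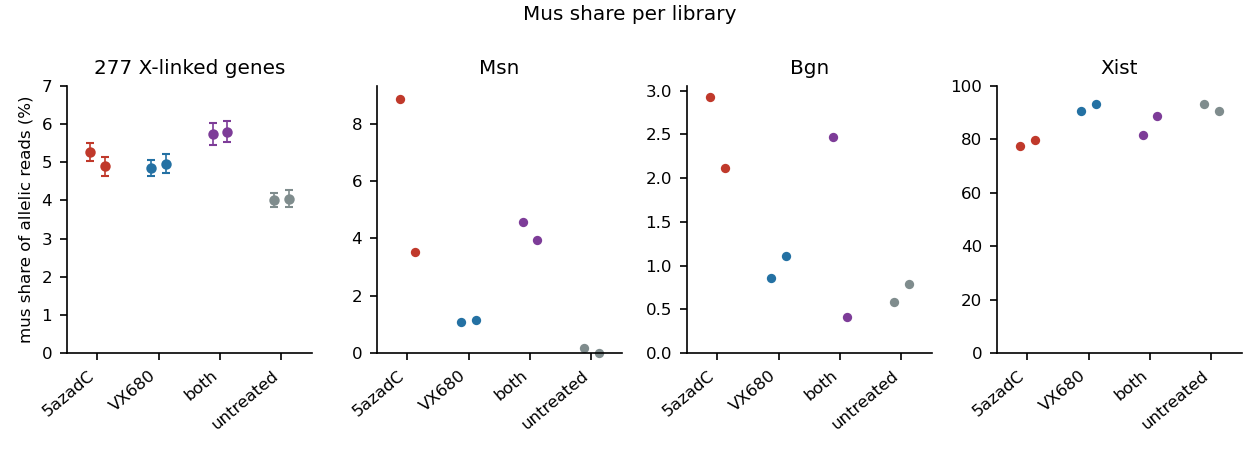
Mus share of allele-assigned reads in percent per library, for 277 pooled X-linked genes with 95% intervals and for Msn, Bgn and Xist, 1 point a library; groups run from 5azadC through VX680 and both drugs to untreated. The pooled shares of the 2 drugs overlap, while Msn and Bgn are higher and Xist lower in both 5azadC libraries than in both VX680 libraries.

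The class high with 5azadC held 8 X-linked genes, none of which had an allelic read in the VX680 and untreated libraries. Tex13, a testis-expressed gene, had 2 mus and 32 cas reads with 5azadC. Gm364 had 19 cas reads and no mus read with 5azadC, which allows a mus share of up to 15.8%. The gene 4930550L24Rik had 7 mus and 8 cas reads with 5azadC, and 2 mus and 6 cas reads with both drugs. Taf7l and Zcchc5 had no allelic read with 5azadC and Trap1a had 3, all cas, so these genes cannot be compared. The 8 genes together had 9 mus and 211 cas reads with 5azadC.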

How the data were processed

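Total RNA of 8 samples was made into strand-marked (dUTP) libraries, per the labels. The authors deposited raw read counts per gene, raw counts per gene and allele, and a table of scaled signal in which each library's counts are multiplied by 1 factor. The submitters' processing notes name mm9, TopHat2 2.0.10, HOMER 4.8 and edgeR; how each was used, and how reads were assigned to alleles, is not given in the sources used here. The gene length column was not used in a test, 8 further columns of sample values were not used, and the authors' tables of each drug against untreated cells were not used.

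Counts were fitted with edgeR 4.0.16 (R 4.3.3): filterByExpr, TMM, 1 mean per group over all 8 libraries, quasi-likelihood F test of 5azadC minus VX680, Benjamini-Hochberg adjustment over all genes tested, and a threshold of 0.05. SE is the absolute log2 difference divided by the square root of F. For a gene with 0 reads in a group the bound is computed against 3 reads over the group. Allelic ratios were tested in edgeR as an interaction of allele and drug with 1 term per library, for genes averaging 10 or more allelic reads. Intervals are exact 95% Clopper-Pearson and, like the bounds, cover counting error only. Alternatives used limma 3.58.1, with 1 added to the authors' signal before log2, and DESeq2 1.42.0. The code was tested on simulated data.

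Named genes were the first 12 called in each direction by log2 difference (averaging 1 or more in log2 CPM, no overlap between both drugs' libraries), up to 4 of each list by p, the first 6 of each class, the first allelic genes and fixed genes of both pathways. Others named beside them, such as further list members, were chosen after their values were seen. A few genes that these rules would name are not reported here. The gene lists and the comparison were chosen with earlier results of these data known. Counts depend on depth, between 6908503 and 11169532 reads per library.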

Additional observations from a re-analysis of the deposited data

How the results depend on the processing

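Counts of genes called higher or lower were recomputed with DESeq2 size factors, without a filter on low counts, with a mean of at least 10 counts, with DESeq2, from the 4 libraries alone, with voom and 1 weight a group, with the replicate number as a block, with limma on the authors' scaled signal, and without each library in turn. The allelic counts were recomputed with a minimum mean of 5 and of 20 allelic reads and without each 5azadC and VX680 library. The 107 named genes gave 1707 comparisons with an alternative, of which 3 changed direction, none of them a call: Dnmt3b was at -0.041 with the authors' signal and between -0.284 (without 5azadC replicate 1) and 0.408 (without 5azadC replicate 2) when 1 library was left out, and Uhrf1 between -0.031 and 0.379 without the same libraries. Calls of the named genes were also lost with DESeq2 (Dcn, H19 and Tet2), from the 4 libraries alone (Cdkn1a, Dcn, Gadd45a, H19, H2-K1, Kdm5c and Tet2), with voom (Gadd45a, H19 and Tet2), with the replicate block (Gadd45a and Kdm5c) and with the authors' signal (Cyp51, H19, Kdm5c, Mcm6 and Tet2). The genes higher with 5azadC were 731 and the lower ones 1230 with the authors' signal, and the lower ones were 491 from the 4 libraries alone. Without filter 5 p53 targets were lower, with the authors' signal 6, and from the 4 libraries alone 1. The germline genes higher were 5 with the mean filter and 5 from the 4 libraries alone, where 1 matrix gene was lower. Leaving out 1 library gave 503 to 1465 genes higher, 269 to 1017 lower, 134 to 366 at least 2-fold lower, 4 to 9 germline genes higher, 2 to 5 p53 targets higher, 0 to 5 p53 targets lower, 10 to 27 mitosis genes lower and 0 to 8 matrix genes lower. It gave 8 to 26 autosomal genes with a changed mus to cas ratio. With 1 library left in a group, that library was assumed to vary like the other groups. With distances of 0.25 and 1 the classes low with 5azadC, high with VX680 and low with VX680 held 19, 41 and 20 genes. With distances of 0.5 and 2 the classes high and low with 5azadC, and high and low with VX680, held 62, 5, 33 and 11 genes. The cause of these shifts was not tested.

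The replicate numbers did not pair the samples: deviations of libraries with the same number correlated between -0.06 and 0.03 over the 6 pairs of groups. With the replicate block the counts were 1117 higher and 745 lower. For the allelic ratio, no fit with the replicate number as a block was run. The planned comparison of promoter CpG content was not run, since no promoter sequence was used here.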
